A study of Mus musculus with 6 samples.

Results

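The genes described here are the nuclear genes of the mitochondrial respiratory chain and ATP synthase, taken by name from the rows of the count table. The rule asked for a whole symbol: Nduf with A, B, C, S or V and a number, Sdh with A to D, or Uqcr or Atp5 with a suffix. It also took Cox families 4 to 8 with a letter and an optional digit. Names ending in -ps were left out, and longer names such as Ndufab1, Ndufaf1, Ndufa4l2 and Cox7a2l do not match. Of 55401 rows, 84 met this rule, and they carry 83 symbols, since Atp5o is listed under 2 identifiers. By complex there were 35 rows for complex I, 4 for complex II, 8 for complex III, 19 for complex IV and 18 for complex V. Ndufa4 was placed with complex IV, where the protein belongs. The rows lie on 19 chromosomes, and 83 of the 84 are annotated as protein coding in GENCODE M21. Of the 84, 80 passed the filter on low counts and were tested, out of 18438 genes tested in all.

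The study asked what loss of Rbpj, the DNA-binding effector of canonical Notch signalling, does to kidney endothelial cells (ECs). Bulk RNA-seq was made from CD31+ CD45- cells sorted from the kidneys of 3 CTRL and 3 RbpjΔEC mice, all males with the floxed allele labelled Rbpsuh tm3Hon/Rbrc, bred to a Cdh5(PAC)-CreERT2 line, labelled B6-Tg(Cdh5(PAC-cre/ERT21Rha. CTRL mice were Cre-negative littermates (Cre -/-; Rbpjf/f) and RbpjΔEC mice carried 1 copy of the transgene (Cre +/-; Rbpjf/f). Both groups therefore had the floxed Rbpj alleles, and both received 5 intraperitoneal injections of 1.5 mg tamoxifen at 8 weeks of age, with harvest 12 weeks later and a labelled age of 21 weeks. Recombination was driven by the Cdh5 promoter, which is active in vascular and in lymphatic ECs. Because CTRL mice lacked the transgene, the presence of the recombinase and the loss of Rbpj cannot be told apart.

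Libraries held 39649171 to 47726850 counts, and CTRL 1 stood apart with counts in 33764 genes against 25629 to 26785 in the other 5. Counts over the whole Rbpj gene were 28.1, 29.7 and 29.8 CPM (counts-per-million) in CTRL libraries 1, 2 and 3, in the order used for all values below, and 28.8, 26.1 and 29.6 CPM in RbpjΔEC, so the gene's total did not separate the groups. A floxed allele loses only the stretch between its loxP sites, and a count over all exons does not check that loss. RbpjΔEC therefore stands throughout for the libraries so labelled. The 10 pan-endothelial markers summed to between 19489 and 23647 CPM in all 6 libraries, while the 12 macrophage and leukocyte markers summed to between 15.9 and 29.9 CPM.

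The respiratory chain passes electrons from NADH (complex I) and succinate (complex II) through complex III to oxygen at complex IV, and complexes I, III and IV pump protons across the inner mitochondrial membrane. ATP synthase, complex V, uses that gradient to make ATP. Most subunits are encoded in the nucleus, while a small set in complexes I, III, IV and V is encoded by mitochondrial DNA, so the 2 genomes must be expressed together. ECs draw much of their ATP from glycolysis and keep a smaller mitochondrial compartment than the tubule cells around them.

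The promoters of these genes are known for sites of NRF1, GABP and other ETS proteins, ERR and YY1, so those motifs were searched for, with the RBPJ motif and the TATA box. RefSeq promoter sequence (GRCm38.p6, 250 bases before to 50 after the start) was matched for 66 of the 80 tested genes, with 71 promoters in all. Among those not matched were Ndufs1, Ndufa2, Ndufb9, Sdhc, Uqcrb, Uqcrc2, Uqcrq, Cox4i1, Cox4i2, Cox6c, Cox6c2, Atp5a1 and Atp5mpl. The sequences below are the 250 bases before the start for the 3 genes with the smallest p that had a promoter, and for Cox6a1, which was added because it had the smallest p among genes with an NRF1 match. Capitals mark motif matches on either strand.
Cox6b1, chr7:30626115-30626364, minus strand: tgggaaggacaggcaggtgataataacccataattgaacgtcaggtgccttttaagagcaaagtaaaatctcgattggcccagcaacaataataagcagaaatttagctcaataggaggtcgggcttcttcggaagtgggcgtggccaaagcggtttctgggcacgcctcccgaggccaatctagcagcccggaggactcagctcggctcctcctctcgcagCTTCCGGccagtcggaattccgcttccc
Atp5b, chr10:128083057-128083306, plus strand: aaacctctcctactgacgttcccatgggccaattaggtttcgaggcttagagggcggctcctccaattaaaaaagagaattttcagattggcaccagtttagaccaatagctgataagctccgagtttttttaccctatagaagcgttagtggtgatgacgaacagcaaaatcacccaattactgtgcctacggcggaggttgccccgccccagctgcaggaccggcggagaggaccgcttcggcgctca
Uqcrfs1, chr13:30545317-30545566, minus strand: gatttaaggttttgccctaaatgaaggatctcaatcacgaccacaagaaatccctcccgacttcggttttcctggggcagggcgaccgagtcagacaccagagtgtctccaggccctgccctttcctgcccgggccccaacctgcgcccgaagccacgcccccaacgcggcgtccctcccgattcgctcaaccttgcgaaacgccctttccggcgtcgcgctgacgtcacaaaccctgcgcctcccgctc
Cox6a1, chr5:115348959-115349208, minus strand: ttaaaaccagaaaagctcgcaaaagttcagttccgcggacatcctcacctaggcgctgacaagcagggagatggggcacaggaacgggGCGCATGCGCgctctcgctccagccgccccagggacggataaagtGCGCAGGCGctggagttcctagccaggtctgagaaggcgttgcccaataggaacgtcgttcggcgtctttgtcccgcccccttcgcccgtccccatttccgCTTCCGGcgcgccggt
Cox6b1 held a single match, the ETS letters CTTCCGG beginning 28 bases before the start. Cox6a1 held the same ETS letters 16 bases before the start and NRF1 matches beginning 162, 161 and 117 bases before it, of which the first 2 are the same site read on both strands. No motif letters were found in these bases of Atp5b or Uqcrfs1.

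Across the 71 promoters, the NRF1 letters GCGCANGCG were present in 29.6%, against 6.25% of all 32851 promoters and 12.0% of the 14684 promoters of tested genes. The ETS letters CCGGAAG were present in 23.9%, against 8.86% and 16.0% respectively. The ERR letters AAGGTCA were present in 11.3%, against 4.72% and 3.32%. For YY1, ATGGCGGC was present in 9.86% (2.24% and 4.30%) and CAAGATGGC, which shares 5 letters with it and can overlap it, in 8.45% (1.24% and 2.05%). The RBPJ letters GTGGGAA were present in 5.63%, against 6.38% of all promoters and 6.15% of those of tested genes. TATAAA was present in 11.3%, against 13.6% and 7.63%. The 20 genes with an NRF1 match had a median log2 fold change (log2FC) of -0.21 for RbpjΔEC over CTRL, where values below 0 are lower in RbpjΔEC, and the 46 matched genes without one had -0.18. Of the 4 genes with an RBPJ match, 2 were lower in RbpjΔEC, with a median log2FC of -0.08, and of the 62 without one 54 were lower, with a median of -0.18. For the other motifs, the medians with and without a match were -0.20 and -0.18 for ETS, -0.17 and -0.18 for ERR, -0.11 and -0.19 for the first YY1 form, -0.15 and -0.19 for the second, and -0.09 and -0.18 for TATAAA. Presence of a motif is a description of the letters and shows no binding.

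Most transcripts of the respiratory chain were lower in direction in RbpjΔEC, by small amounts, and no single gene passed the threshold. Of the 80 genes tested, 70 were lower and 10 higher in RbpjΔEC, while 48.9% of all genes tested were lower. The median log2FC was -0.21, against 0.01 over all genes tested. None of the 80 passed an adjusted p of 0.05 by edgeR (quasi-likelihood) after Benjamini-Hochberg adjustment over all 18438 genes, a threshold that 1.13% of all genes passed; the lowest adjusted p was 0.0819, for Cox6b1. At an unadjusted p under 0.05, 31 genes were lower, where 8.62% of all genes were lower by this rule, and 0 were higher, where 8.88% of all genes were higher. In 24 genes every RbpjΔEC library lay below every CTRL library, against 11.6% of all genes, and in 0 genes did every RbpjΔEC library lie above, against 11.4%. The shares over all genes are not matched for level: the median CTRL level was 23.6 CPM in the 80 genes and 8.29 CPM over all genes tested. With the low-count filter off, edgeR called 8 of the genes, where 3.75% of all genes were called, and the DESeq2 Wald test called 1, Atp5b, where 1.52% of all genes were called. In bulk RNA, fewer cells of a type and less RNA per cell cannot be told apart.

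**Figure D1:**
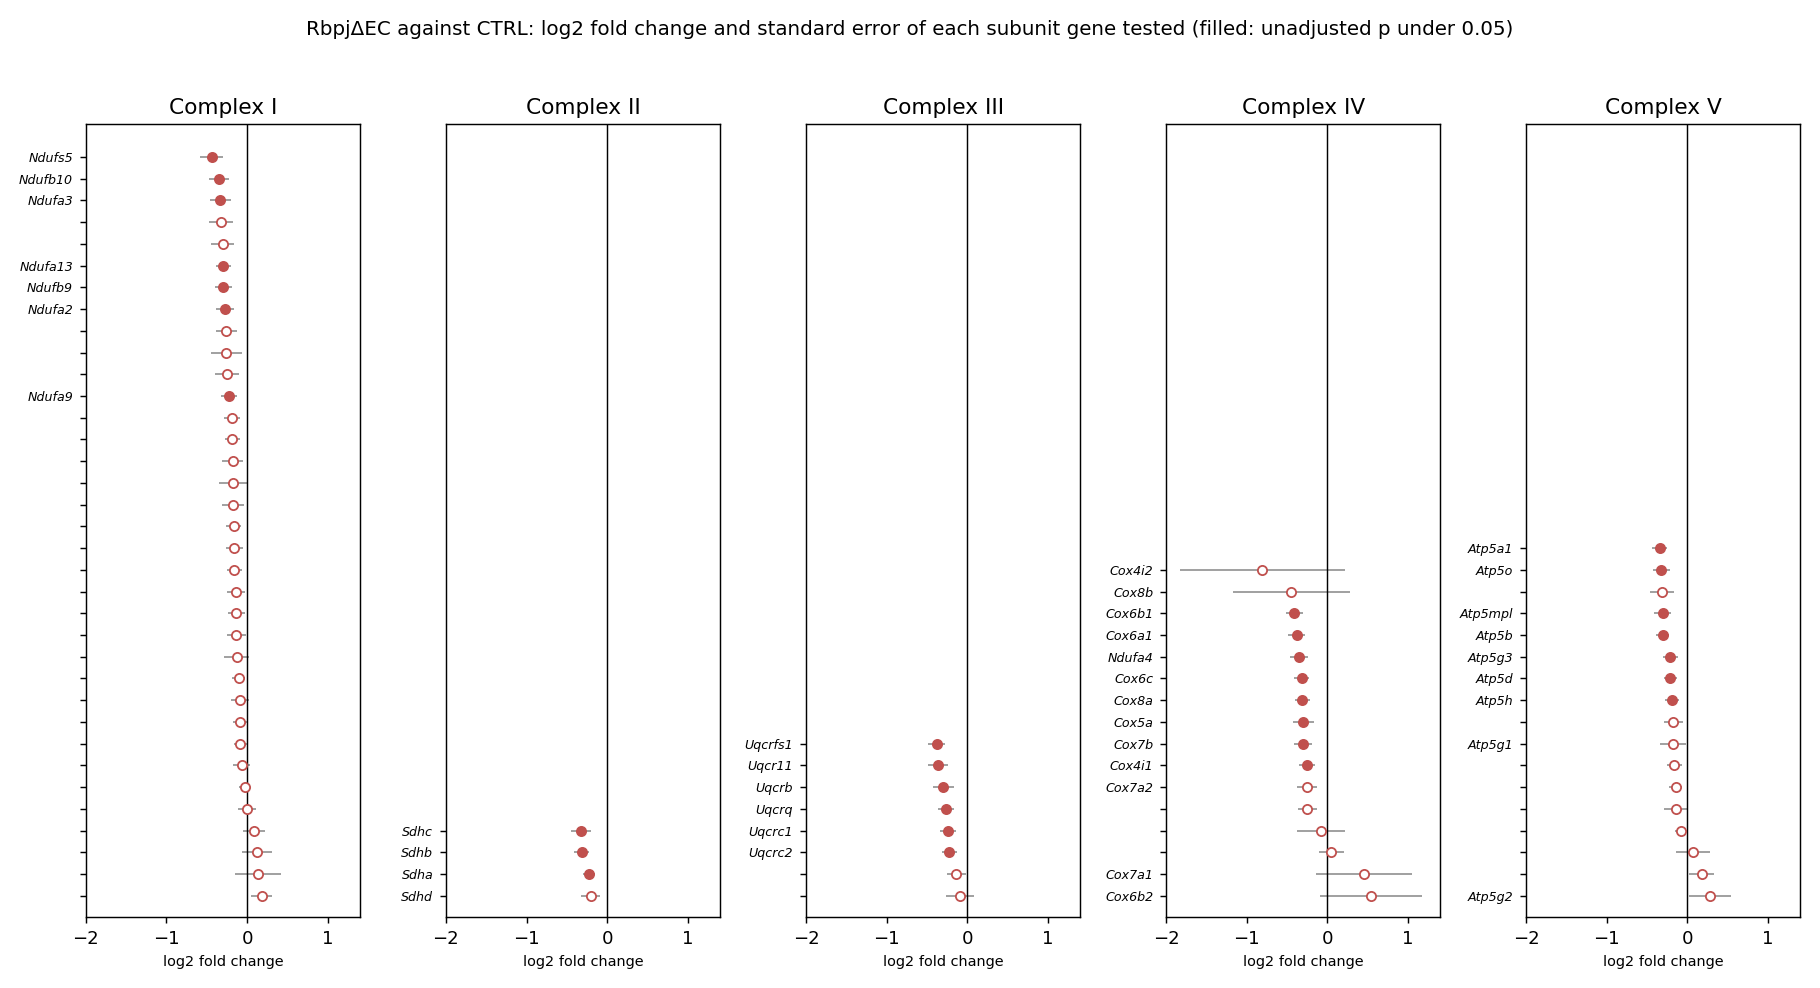
Log2FC (x axis) of RbpjΔEC against CTRL with its standard error for each of the 80 genes tested, in 1 panel per complex; filled points have an unadjusted p under 0.05 and carry the gene name, as do the genes singled out by rule. Points lie to the left of 0 for 70 genes, and the wide error bars in complex IV belong to isoform genes under 1 CPM.

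The libraries of the CTRL group did not sit together. The summed CPM of the 84 rows was 2476, 2177 and 2608 in CTRL and 2006, 2145 and 2096 in RbpjΔEC. The groups did not overlap, but CTRL 2 lay only just above RbpjΔEC 2. The group means were 2420 ± 221 and 2082 ± 70.1 CPM (SD, n = 3), a difference of -14.0%. CTRL 2 was the lowest CTRL library in 68 of the 80 genes and CTRL 3 the highest in 57. CTRL 1 lay above every RbpjΔEC library in 58 genes, CTRL 3 in 66 and CTRL 2 in 28, where 31.0%, 31.2% and 26.2% of all genes tested did so. Without CTRL 2 the test called 13 of the genes, all lower, and 700 genes over the whole table (3.65% of those tested), and 49 genes had an unadjusted p under 0.05. That count was 17 without CTRL 1, 14 without CTRL 3 and 15 without RbpjΔEC 1.

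**Figure D2:**
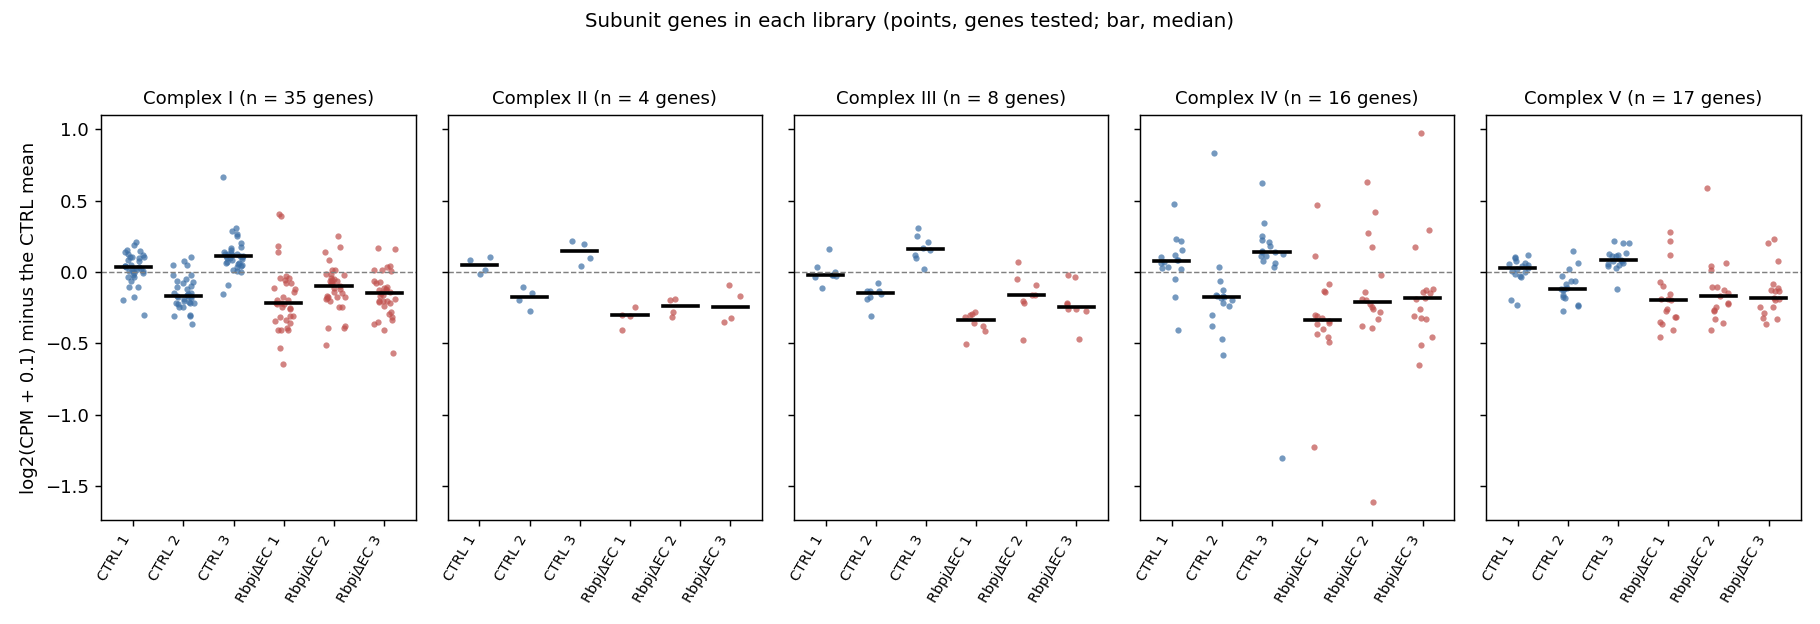
Log2(CPM + 0.1) of each tested gene minus its CTRL mean (y axis) in each of the 6 libraries (x axis), by complex; points are genes and bars are medians. In every complex the bar of CTRL 2 lies below those of CTRL 1 and CTRL 3, and in complex I it lies lower than the bars of RbpjΔEC 2 and RbpjΔEC 3.

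Complex I, NADH dehydrogenase, had a median log2FC of -0.17, with 31 of 35 genes lower, 7 of them at an unadjusted p under 0.05. Over all genes tested, 8.62% were lower at that p. Its summed CPM was 898, 793 and 955 in CTRL and 764, 811 and 789 in RbpjΔEC. CTRL 2 lay inside the RbpjΔEC range, so the groups overlapped. The difference of the means was -10.6%, and the median log2FC was -0.0949 without CTRL 3.

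Among its genes, the 7 core subunits that carry the flavin, the iron-sulphur clusters and the quinone site had a median log2FC of -0.09, with none at an unadjusted p under 0.05. The 28 accessory subunits had a median of -0.18. The lowest p values belonged to accessory genes. Ndufa13, also known as Grim19, had 34.6, 30.8 and 37.8 CPM in CTRL and 27.1, 28.9 and 28.2 CPM in RbpjΔEC. Every RbpjΔEC library lay below every CTRL library (log2FC -0.30, standard error 0.09; adjusted p = 0.134, edgeR quasi-likelihood, Benjamini-Hochberg). Ndufs5 had 8.15, 10.1 and 10 CPM in CTRL and 7.04, 6.55 and 7.26 CPM in RbpjΔEC, again without overlap, and its log2FC of -0.44 was the lowest among genes of at least 1 CPM. For Ndufb9 the CTRL values were 30.3, 25.2 and 30.6 CPM and the RbpjΔEC values 22.5, 22.0 and 25.8 CPM, so that RbpjΔEC 3 lay above CTRL 2. Ndufb10 was the complex I gene with the highest level per length, 41.1 ± 5.84 RPKM (the CPM divided by the exonic length in kilobases; SD, n = 3) in CTRL. Its CPM values were 54.0, 41.8 and 54.2 in CTRL and 34.2, 45.0 and 39 in RbpjΔEC, where RbpjΔEC 2 lay above CTRL 2.

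Among the core genes, Ndufs1, which holds iron-sulphur clusters of the NADH arm, had a log2FC of -0.03 (0.01 when scaled by library size alone), Ndufv1, the flavin subunit, -0.08, and Ndufs8 -0.26. With a library left out, Ndufv1 ran from -0.0234 (without CTRL 3) to -0.169 (without CTRL 2), and Ndufs8 from -0.126 to -0.386 under the same omissions. The 4 complex I genes with a higher mean in RbpjΔEC were Ndufb2 (log2FC 0.18), Ndufb4 (0.13), Ndufs3 (0.12) and Ndufc1 (0.08), and in each the groups overlapped. With a library left out, they ran from 0.0563 to 0.284 for Ndufb2, from -0.062 (without CTRL 2) to 0.555 for Ndufb4, which was also below 0 without CTRL 1 (-0.0363), from 0.0438 to 0.168 for Ndufs3 and from 0.0274 to 0.179 for Ndufc1. Ndufb2, Ndufb8 and Ndufb9, of which the last is among the lowest p values above, each have an exon that overlaps another gene on the same strand. How reads in such an overlap were assigned is not given in the sources used here.

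Complex II, succinate dehydrogenase, also works in the TCA cycle and is the only complex of the chain encoded wholly in the nucleus. All 4 genes were lower in direction, with a median log2FC of -0.27. Sdha, the flavin subunit, had 217, 200 and 230 CPM in CTRL and 182, 177 and 192 CPM in RbpjΔEC. The iron-sulphur subunit Sdhb (ENSMUSG00000009863.14, chr4:140961203-140979193, plus strand of GRCm38) had 39.9, 33.5 and 38.3 CPM in CTRL and 30.0, 29.8 and 29.6 CPM in RbpjΔEC. In both catalytic genes the groups were apart, and the RbpjΔEC libraries of Sdhb differed by only 0.21 CPM (SD). The log2FC values were -0.23 (standard error 0.07; adjusted p = 0.136) for Sdha and -0.32 (standard error 0.09; adjusted p = 0.0984) for Sdhb by edgeR quasi-likelihood with Benjamini-Hochberg adjustment. The membrane anchors overlapped between groups. Sdhc had 31.0, 24.2 and 33.5 CPM in CTRL and 22.1, 25.7 and 22.9 CPM in RbpjΔEC, and Sdhd 21.2, 18.7 and 24.9 CPM against 17.4, 18.7 and 20.1 CPM. In both anchors it was CTRL 2 that fell within the RbpjΔEC values. Per length, Sdha stood at 52.2 ± 3.61 RPKM (SD, n = 3) in CTRL, far above Sdhd (17.5 ± 2.53), Sdhb (16.6 ± 1.47) and Sdhc (9.09 ± 1.48). Sdhd and Sdhb did not differ beyond their spread.

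Complex III, the cytochrome bc1 complex, had all 8 genes lower in direction, with a median log2FC of -0.26, 6 genes at an unadjusted p under 0.05 and 5 without overlap. Over all genes tested, 8.62% were lower at that p and 11.6% lower without overlap. Uqcrfs1 (ENSMUSG00000038462.3, chr13:30540308-30545362, minus strand of GRCm38), the Rieske iron-sulphur protein, had 27.0, 23.7 and 28.7 CPM in CTRL and 20.3, 18.9 and 22.0 CPM in RbpjΔEC. Every RbpjΔEC library was lower than every CTRL library, with a log2FC of -0.38 (standard error 0.10; adjusted p = 0.0940, edgeR quasi-likelihood, Benjamini-Hochberg). The small subunit Uqcr11 had 13.7, 12.7 and 15.5 CPM against 10.4, 12.1 and 10 CPM. Uqcrq, another small subunit, had 27.3, 25.5 and 31.5 CPM against 22.5, 24.1 and 23.4 CPM. Both were without overlap, although CTRL 2 exceeded RbpjΔEC 2 only narrowly. Uqcrb, the member with the highest level per length in this complex (23.0 ± 3.61 RPKM in CTRL; SD, n = 3), had 18.5, 18.2 and 23.8 CPM in CTRL and 14.1, 17.9 and 17.2 CPM in RbpjΔEC. CTRL 1 and CTRL 2 lay within 1 CPM of RbpjΔEC 2. Uqcrh (22.4 ± 3.18) and Uqcr11 (21.8 ± 2.26) did not differ from Uqcrb in CTRL level per length beyond their spread. Of the core proteins, Uqcrc1 had a log2FC of -0.25 and Uqcrc2 of -0.22. The values nearest to 0 were those of Uqcrh (-0.14; -0.0236 without CTRL 3) and Uqcr10 (-0.09; 0.0704 without CTRL 3 and 0.00485 without RbpjΔEC 1), so the count of 8 lower genes rests on those libraries.

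Complex IV, cytochrome c oxidase, had a median log2FC of -0.30, the lowest of the 5 complexes with all libraries in. Of its 16 tested genes 13 were lower, 8 of them at an unadjusted p under 0.05, where 8.62% of all genes were lower. Its summed CPM was 348, 296 and 367 in CTRL and 260, 290 and 276 in RbpjΔEC, a difference of -18.4%. Without RbpjΔEC 2 complex III was lower (-0.293 against -0.282), and without RbpjΔEC 1 complex II was lower (-0.253 against -0.236). CTRL 2 again lay just above RbpjΔEC 2 in summed CPM. Cox6b1 (ENSMUSG00000036751.7, chr7:30616861-30626151, minus strand of GRCm38), a subunit on the intermembrane side, had 21.5, 21.3 and 24.1 CPM in CTRL and 16.2, 18.6 and 15.6 CPM in RbpjΔEC, with CTRL 2 clear of all 3 RbpjΔEC libraries. Its log2FC was -0.41 (standard error 0.10), and its adjusted p of 0.0819 (edgeR quasi-likelihood, Benjamini-Hochberg) was the lowest of the 80 genes. Cox6a1, whose promoter carried the NRF1 letters, had 38.5, 31.9 and 37.5 CPM against 25.5, 31.3 and 26.1 CPM. Cox6c, a small membrane subunit, had 66.7, 58.4 and 72.5 CPM against 48.4, 57.4 and 52.5 CPM. In Cox6a1 and Cox6c the groups were apart by the narrow gap between CTRL 2 and RbpjΔEC 2. Cox8a, the gene of this complex with the highest level per length (53.8 ± 5.79 RPKM in CTRL; SD, n = 3), had 34.0, 29.4 and 36.5 CPM against 26.5, 27.3 and 26.8 CPM. Ndufa4 had a log2FC of -0.35 (standard error 0.11), Cox5a, a matrix-side subunit, -0.30, and Cox5b, its zinc-binding neighbour, -0.25 (-0.392 without CTRL 2 and -0.16 without CTRL 3). Cox7c was the only complex IV gene of at least 1 CPM with a higher mean in RbpjΔEC (log2FC 0.05; -0.0381 without CTRL 1 and -0.014 without RbpjΔEC 2), at 6.58, 7.62 and 8.23 CPM in CTRL and 8.04, 8.41 and 6.76 CPM in RbpjΔEC, and the groups overlapped.

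Several complex IV subunits have isoform genes with restricted expression, in heart and skeletal muscle (Cox6a2, Cox7a1, Cox8b), in lung (Cox4i2) or in testis (Cox6b2, Cox7b2, Cox8c). In these ECs the widely expressed isoform made up nearly all of the level per length in each pair. Cox4i1 accounted for 99.1% of the Cox4 RPKM in CTRL and 99.4% in RbpjΔEC. The corresponding shares were 99.5% and 99.0% for Cox6b1 against Cox6b2, 97.6% and 96.2% for Cox7a2 against Cox7a1, and 98.7% and 98.8% for Cox8a against Cox8b and Cox8c. Cox4i2 was listed at 0.32, 0.44 and 0.02 CPM in CTRL and 0.18, 0 and 0.27 CPM in RbpjΔEC, where 3 counts correspond to 0.0633 to 0.0748 CPM. At these levels a difference between groups was not detectable. Cox6a2 had 4 counts in CTRL 1 and 0 in the other 5 libraries, Cox7b2 had 1 count in CTRL 1 and 0 elsewhere, and Cox8c had 0 in all 6, so these 3 genes were not tested. A count of 0 allows up to 3 counts in a library by counting error alone.

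The 6 widely expressed isoforms Cox4i1, Cox6a1, Cox6b1, Cox7a2, Cox7b and Cox8a were all lower in direction, with a median log2FC of -0.30. Cox4i1, the subunit at which ATP can regulate the enzyme, had 66.0, 55.0 and 68.8 CPM in CTRL and 49.6, 57.1 and 52.7 CPM in RbpjΔEC, so RbpjΔEC 2 lay above CTRL 2. Cox7b had 22.1, 18.6 and 22.0 CPM against 15.8, 16.0 and 19.2 CPM, and Cox7a2 had 18.1, 15.1 and 20.6 CPM against 14.4, 15.2 and 15.6 CPM. Both overlapped through CTRL 2. The isoform genes Cox7a1 and Cox6b2 had log2FC values of 0.45 (standard error 0.60) and 0.54 (standard error 0.63), smaller than their errors, and Cox8b had -0.44 (standard error 0.72). Cox6b2 ran from 0.259 without CTRL 1 to 1.17 without CTRL 3. Cox7a1 turned to -0.12 without RbpjΔEC 3 and Cox8b to 0.02 without RbpjΔEC 1. Cox6c2, a processed copy of Cox6c, shares 56.7% of its 38-base stretches with other annotated genes, so its 13.2 RPKM in CTRL is uncertain.

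**Figure D3:**
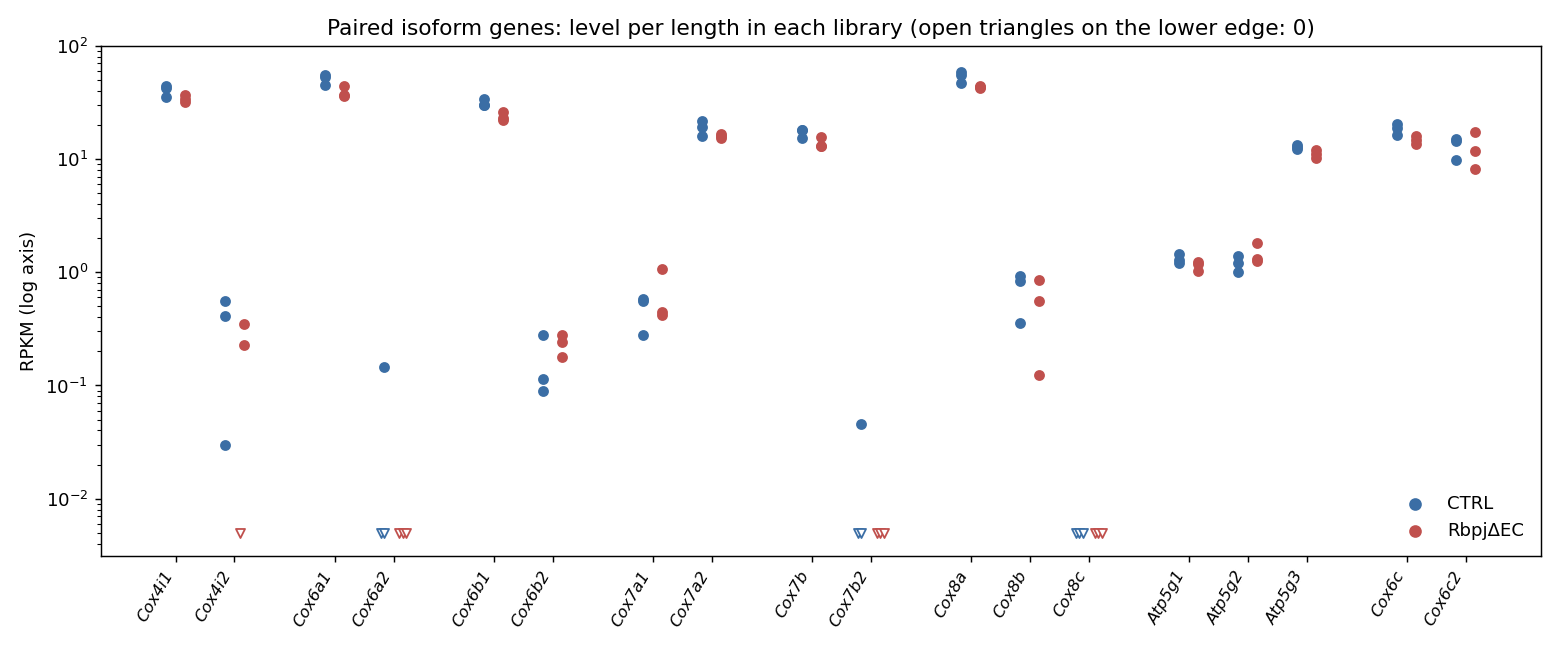
RPKM on a log axis (y) of isoform genes (x) in the 3 CTRL and 3 RbpjΔEC libraries; each point is a library, and open triangles stand for 0 counts. The widely expressed isoforms lie between 13.1 and 59.0 RPKM, while Cox4i2, Cox6a2, Cox6b2, Cox7b2 and Cox8c lie under 1 RPKM in every library.

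Complex V, ATP synthase, had a median log2FC of -0.18, with 14 of 17 tested genes lower and 7 without overlap. Over all genes tested, 11.6% were lower without overlap. Its summed CPM was 727, 636 and 745 in CTRL and 578, 620 and 600 in RbpjΔEC, a difference of -14.7% with no overlap. Atp5b (ENSMUSG00000025393.12, chr10:128083273-128090391, plus strand of GRCm38) is the catalytic beta subunit and had the highest level per length of all, 56.3 ± 5.67 RPKM in CTRL (SD, n = 3). Atp5b had 254, 211 and 251 CPM in CTRL and 185, 197 and 195 CPM in RbpjΔEC. Atp5a1, the alpha subunit that alternates with it in the catalytic head, had 74.9, 58.9 and 74.8 CPM against 52.2, 58.2 and 53.7 CPM. The groups were apart in both, in Atp5a1 by under 1 CPM between CTRL 2 and RbpjΔEC 2. The log2FC values were -0.31 (standard error 0.08; adjusted p = 0.0858) and -0.35 (standard error 0.10; adjusted p = 0.104) by edgeR quasi-likelihood with Benjamini-Hochberg adjustment. Atp5o, which joins the head to the outer stalk, had 22.5, 18.4 and 22.1 CPM against 16.4, 16.3 and 17.6 CPM, also apart. Its annotated transcripts share 46.4% of their 38-base stretches with other genes, and the second Atp5o row, which overlaps the first, had 0 counts in all 6 libraries.

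By part of the enzyme, the 5 genes of the F1 head had a median log2FC of -0.21, the 4 tested stalk genes -0.18, the 5 membrane genes -0.18 and the 3 c-ring genes -0.18. The c-ring genes Atp5g1, Atp5g2 and Atp5g3 encode the same mature c subunit with different import peptides. Atp5g3 supplied 83.6% of their summed RPKM in CTRL and 80.8% in RbpjΔEC, with 28.0, 26.8 and 29.1 CPM against 26.1, 24.0 and 22.3 CPM and no overlap. Atp5g1 had 6.25, 7.09 and 5.89 CPM against 6.08, 5.07 and 5.86 CPM. Atp5g2, with 1.69, 2.03 and 2.34 CPM against 2.18, 3.07 and 2.12 CPM, had a higher mean in RbpjΔEC, and the groups overlapped, as they did in Atp5g1. Atp5g2 shares 39.5% of its 38-base stretches with other genes and has an exon that overlaps another gene on the same strand. The other genes of complex V with a higher mean, Atp5l (log2FC 0.18; 0.08 without CTRL 1) and Atp5md (0.07), overlapped as well. Atp5md was below 0 without CTRL 2 (-0.00158), RbpjΔEC 1 (-0.0169) or RbpjΔEC 3 (-0.0087). Atpif1, the inhibitor of ATP synthase, is named outside the rule and had a log2FC of 0.01 (standard error 0.11), with 58.9, 50.5 and 68.4 CPM in CTRL and 55.5, 66.3 and 57.0 CPM in RbpjΔEC. Its log2FC was below 0 without CTRL 1 (-0.00032), CTRL 2 (-0.102) or RbpjΔEC 2 (-0.0744).

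**Figure D4:**
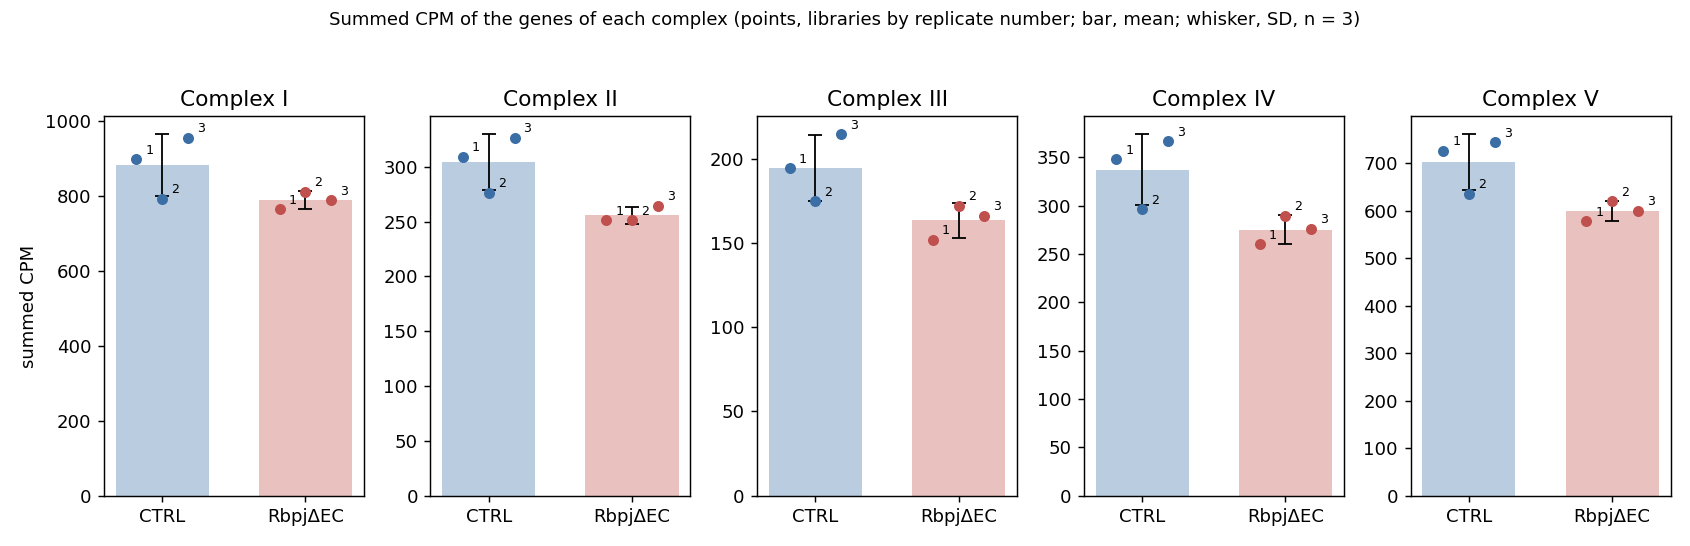
Summed CPM of the genes of each complex (y axis, from 0) in CTRL and RbpjΔEC; points are libraries with their replicate number, bars are means and whiskers are SD (n = 3). CTRL 2 is the lowest CTRL library in all 5 panels, and only in complex I does an RbpjΔEC library reach it.

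Levels in CTRL ran from 0.161 to 56.3 RPKM over the 80 genes, with a median of 15.1. The highest were Atp5b (56.3 ± 5.67), Cox8a (53.8 ± 5.79), Sdha (52.2 ± 3.61) and Cox6a1 (51.3 ± 5.04), and these neighbours in the order did not differ beyond their spread. Ndufb10 (41.1 ± 5.84) and Cox4i1 (40.8 ± 4.71) followed. Genes of at least 1 CPM, 76 of the 80, had standard errors of the log2FC between 0.0689 and 0.297, and their fold changes ran from -0.44 to 0.28. Exonic length had a median of 1578 bases in the 80 genes and of 3525 bases over all genes tested.

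Other genes of the pathway were set beside them. The mitochondrially encoded subunits, of which 7 of 13 were tested, were all lower in direction, with a median log2FC of -0.27 and none past the threshold. Their summed CPM was 6735, 5751 and 6453 in CTRL and 4879, 4422 and 6635 in RbpjΔEC, where RbpjΔEC 3 lay above CTRL 2 and CTRL 3 while RbpjΔEC 1 and RbpjΔEC 2 lay below all CTRL libraries. The median was -0.475 without RbpjΔEC 3 and -0.149 without RbpjΔEC 2. By edgeR, mt-Nd2 and mt-Co1 passed the threshold without RbpjΔEC 3 (adjusted p = 0.00949 and 0.031) and with the filter off (0.000561 and 0.0139). The untested 6 (mt-Co2, mt-Atp8, mt-Atp6, mt-Co3, mt-Nd3 and mt-Nd4l) had from 0 to 20 counts in any library, while mt-Co1 had 52079 to 76270. How reads of these 6 genes were counted is not given in the sources used here, so their values were not read as levels of expression. mt-Nd2 and mt-Co1 had an unadjusted p under 0.05, where 8.62% of all genes were lower.

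The TCA cycle list, which feeds NADH and succinate to the chain, had 14 of 17 genes lower and a median of -0.18. At an unadjusted p under 0.05, 9 genes were lower, and 9 genes, not all of them the same, were lower without overlap. Over all genes tested, 8.62% were lower at that p and 11.6% lower without overlap. Dld, the shared dehydrogenase subunit, had 54.8, 56.0 and 55.6 CPM in CTRL and 46.4, 47.9 and 48.3 CPM in RbpjΔEC. Idh2 had 81.3, 76.1 and 87.6 CPM against 69.2, 72.6 and 64.4 CPM, and Mdh2 had 98.1, 95.2 and 109 CPM against 83.1, 86.0 and 88.9 CPM. Their log2FC values were -0.22, -0.25 and -0.23, and CTRL 2 was not set apart in Dld.

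Assembly factors, which build the complexes, had 36 of 49 genes lower with a median of -0.10 (-0.163 without CTRL 2). At an unadjusted p under 0.05, 2 of them were lower and 4 higher, where 8.62% of all genes were lower and 8.88% higher. The only gene of these pathway lists past the threshold was among them, in the other direction: Foxred1, a complex I assembly factor, had 14.1, 17.7 and 16.1 CPM in CTRL and 23.4, 24.6 and 22.3 CPM in RbpjΔEC. It rose by 0.55 on the log2 scale (standard error 0.11; adjusted p = 0.0369, edgeR quasi-likelihood, Benjamini-Hochberg) with no overlap. This call was lost without CTRL 1, CTRL 3, RbpjΔEC 1 or RbpjΔEC 2 (adjusted p = 0.128, 0.133, 0.154 and 0.12). Cox14 (-0.29) and Coa5 (-0.23), which act on complex IV, were next by p and did not pass.

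Of the subunits and carriers outside the naming rule, 6 of 7 tested genes were lower, with a median of -0.13 (-0.0694 without RbpjΔEC 1). The exception was Cycs, cytochrome c, the carrier between complexes III and IV, with 18.4, 20.9 and 21.5 CPM in CTRL and 24.4, 23.4 and 23.0 CPM in RbpjΔEC. Every RbpjΔEC library lay above every CTRL library (log2FC 0.22; adjusted p = 0.250, edgeR quasi-likelihood, Benjamini-Hochberg). Ndufb1-ps (-0.27; -0.177 without RbpjΔEC 1) and Ndufa4l2 (-0.74, standard error 0.61; -0.399 without CTRL 1) were next by p.

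Regulators of mitochondrial biogenesis had 9 of 17 genes lower, a median of -0.05 (0.0311 without RbpjΔEC 3) and none past the threshold. Esrrb, an oestrogen-related receptor, had 4.93, 1.31 and 1.96 CPM in CTRL and 0.51, 0.83 and 0.97 CPM in RbpjΔEC, without overlap (log2FC -1.82, standard error 0.49; -1.09 without CTRL 1). Its adjusted p was 0.105 by edgeR, and it passed with the filter off (1.8e-05), by DESeq2 (0.0115) and without CTRL 2 (0.0299). Ppargc1a, the coactivator PGC-1 alpha, had 9.07, 6.96 and 7.05 CPM against 4.90, 5.24 and 7.65 CPM, with RbpjΔEC 3 above CTRL 2 and CTRL 3. Ppara had 1.52, 1.46 and 1.61 CPM against 1.54, 1.95 and 3.19 CPM, with a log2FC of 0.54 (standard error 0.31) that was 0.191 without RbpjΔEC 3, its highest library. CTRL 1 was the highest library for Esrrb and for Ppargc1a.

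Lists of protein synthesis and import were set beside them as well. Mitochondrial ribosomal genes had 54 of 78 lower with a median of -0.08. Import translocases had 13 of 22 lower with a median of -0.02, which was 0.0214 with library size as the only scaling. Cytoplasmic ribosomal genes had 62 of 78 lower with a median of -0.15 and 13 lower against 2 higher at an unadjusted p under 0.05. Over all genes tested, 8.62% were lower and 8.88% higher at that p. None of these 3 lists had a gene past the threshold. With the filter off, Mrpl17, Tomm34, Rpl13a, Rpl8 and Rpsa passed by edgeR (adjusted p = 0.0456, 0.0406, 0.00543, 0.00755 and 0.00713), and Rpl8 and Rpsa passed without CTRL 2 (0.0464 and 0.0365). The cytoplasmic ribosomal median was -0.0486 without CTRL 3 and -0.0898 without RbpjΔEC 3. The mitochondrial ribosomal median was -0.0521 without CTRL 3, -0.0524 without RbpjΔEC 3 and -0.126 without RbpjΔEC 2. The smallest p values belonged to Mrpl17 (log2FC 0.30), Tomm34 (0.28) and Rpl13a (0.41), all higher in RbpjΔEC, followed by Mrps14 (-0.34) and Mrps34 (-0.36), Timm10 (-0.58) and Timm8b (-0.41), and Rpsa (-0.31) and Rpl8 (-0.30).

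**Figure D5:**
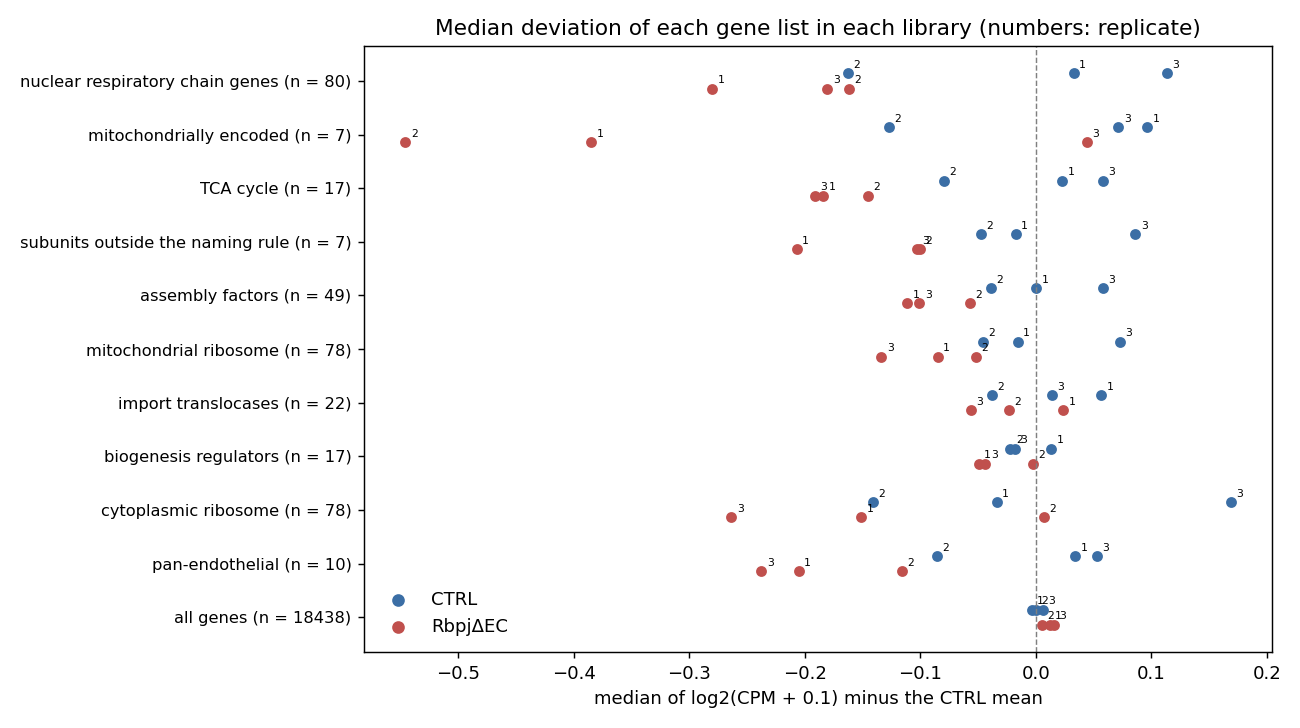
Median over each list of log2(CPM + 0.1) minus the CTRL mean (x axis) in each library, with the list and its number of tested genes on the y axis and replicate numbers beside the points. For the nuclear respiratory chain genes CTRL 2 (-0.163) lies at the level of RbpjΔEC 2 (-0.162), while all genes together stay between -0.004 and 0.015.

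Sums of cell type markers also differed between the libraries, and their part in the values above was not tested. The 10 pan-endothelial markers summed to 23333, 21507 and 23647 CPM in CTRL and 19807, 19589 and 19489 CPM in RbpjΔEC, a difference of -14.0%, and 8 of 10 were lower with a median log2FC of -0.18. CTRL 2 was the lowest CTRL library for this sum too. The 8 markers of the loop, distal tubule and collecting duct, cells rich in mitochondria, were all lower, at 408, 246 and 220 CPM in CTRL and 105, 48.7 and 165 CPM in RbpjΔEC, and Scnn1g passed the threshold (adjusted p = 0.0154 by edgeR, and 0.0544, 0.0900 and 0.0693 without CTRL 1, RbpjΔEC 1 and RbpjΔEC 2). The 10 proximal tubule markers, from the other mitochondria-rich tubule cell, were all higher in direction, at 53.0, 94.4 and 163 CPM against 107, 123 and 462 CPM, and none passed. RbpjΔEC 3 had the highest proximal tubule sum. Within its group it also had the highest sums of loop, distal and collecting duct markers and of mitochondrially encoded genes. CTRL 1 had the lowest proximal tubule sum of all 6 libraries. It had the highest sums of loop, distal and collecting duct markers and of mitochondrially encoded genes.

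Mural markers were lower in 6 of 6 tested genes, at 92.1, 74.9 and 73.6 CPM against 39.4, 30.2 and 47.5 CPM, with Acta2, Myh11 and Rgs5 past the threshold. The macrophage and leukocyte markers summed to 19.3, 15.9 and 17.9 CPM against 24.3, 27.3 and 29.9 CPM, a sum led by Cd68, which passed the threshold as higher. The list's median went the other way, at -0.73, with 4 of 6 tested genes lower, and Ptprc, which encodes the CD45 used in the sort, lay between 0.54 and 3.91 CPM. The podocyte list summed to 3381, 2986 and 3342 CPM against 2555, 2679 and 2403 CPM, nearly all of it Podxl, which ECs also express. The calls of Acta2, Myh11, Rgs5 and Cd68 were lost without RbpjΔEC 1, with adjusted p values of 0.154, 0.106, 0.186 and 0.0645 by edgeR. Those of Acta2, Myh11 and Rgs5 were also lost without CTRL 1 (0.0956, 0.127 and 0.120), those of Acta2, Myh11 and Cd68 without CTRL 3 (0.15, 0.172 and 0.0917), those of Rgs5 and Cd68 without RbpjΔEC 2 (0.135 and 0.0681), and that of Rgs5 without CTRL 2 (0.0599). Rgs5 also missed the threshold with library size as the only scaling (0.0553), as did Rgs5 (0.0544) and Myh11 (0.0506) with genes of a mean of at least 1 CPM only. The 5 fibroblast markers were low and summed to 3.16, 1.86 and 2.89 CPM in CTRL and 0.847, 0.762 and 1.17 CPM in RbpjΔEC, a difference of -64.8%. Both tested members, Col1a2 and Col3a1, which encode fibrillar collagens, were lower without overlap and did not pass the threshold.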

How the data were processed

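Total RNA (2 ng) from sorted kidney ECs was made into stranded libraries and sequenced by the study as 38-base paired reads in 1 run. Per the submitters' processing notes and the study's methods, the authors trimmed reads with Trim Galore 0.6.4, aligned them to GRCm38.p6 with STAR 2.6.1d and counted them per gene with featureCounts (Subread 1.6.4). The deposited values are raw counts per gene, 1 column per mouse. Whether counting used strand, and how reads matching several genes were treated, is not given in the sources used here.

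Columns were assigned to samples through the labels. Counts were tested with edgeR 4.0.16 in R 4.3.3 (quasi-likelihood, TMM, filterByExpr, no covariates, all 6 libraries), with Benjamini-Hochberg adjustment over 18438 genes and a threshold of 0.05. CPM were scaled by TMM. RPKM used union exon lengths of GENCODE M21. Deviations used log2(CPM + 0.1). A list is described by counts and its median, with no test of the list. Genes named in the text are the 3 with the smallest p in complexes I, III, IV and V, all of complex II, the gene with the highest RPKM in each complex, isoform groups, the 5 genes without overlap with the lowest log2 fold change and genes below the filter, and in other lists the 3 with the smallest p; Ndufa4, Cox5a, Cox5b, Cox7c, Uqcrc1, Uqcrc2, Uqcrh, Uqcr10, Ndufs1, Ndufv1, Ndufs8, Cox6c2 and the genes higher in RbpjΔEC were named after their values were seen. The genes and lists were chosen with earlier results of these data known. Shared sequence was the percentage of 38-base stretches of a gene's transcripts found in another annotated gene; 2 of the 84 rows shared at least 50%, 6 have an exon overlapping another gene on the same strand and 26 on the other.

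On simulated counts for this comparison (18022 genes), the test recovered 18 of 50 genes changed by 0.5 on the log2 scale, 40 of 50 at 1, 43 of 50 at 1.5 and 48 of 50 at 2, and called 12 of 17822 unchanged genes. Alternatives were other scalings, other filters, DESeq2 1.42.0, a replicate block and leaving out each library. Each label is 1 mouse, and p-values measure the spread between 3 mice per group.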

Additional observations from a re-analysis of the deposited data

How the results depend on the processing

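With each library left out in turn, the number of genes past the threshold ran from 0 to 13, the number lower at an unadjusted p under 0.05 from 14 to 49 and the number lower in direction from 66 to 72. The median log2 fold change ran from -0.269 to -0.155 over all genes of the chain, from -0.247 to -0.0949 in complex I, -0.35 to -0.207 in complex II, -0.339 to -0.178 in complex III, -0.388 to -0.221 in complex IV and -0.248 to -0.162 in complex V. The summed CPM differed by -18.1 to -10.5%. The medians ran from -0.163 to -0.07 for assembly factors, from -0.475 to -0.149 for mitochondrially encoded genes, from -0.0711 to 0.0311 for biogenesis regulators (above 0 without RbpjΔEC 3) and from -0.0565 to -0.0284 for import translocases. The cause was not tested. With the filter off, 8 genes were called among 1436 over the whole table, and by DESeq2 1 gene among 584, against 0 among 209. With library size as the only scaling, the median was 0.05 over all genes; the chain went to -0.164, assembly factors to -0.0594, biogenesis regulators to -0.00553 and import translocases to 0.0214, with 22 genes lower at an unadjusted p under 0.05. Single genes that changed sign with a library left out ran from -0.0169 to 0.212 for Atp5md, -0.102 to 0.122 for Atpif1, -0.408 to 0.146 for Cox6c2, -0.116 to 0.689 for Cox7a1, -0.0381 to 0.137 for Cox7c, -1.04 to 0.0231 for Cox8b, -0.062 to 0.555 for Ndufb4, -0.0888 to 0.00129 for Rbpj and -0.244 to 0.0704 for Uqcr10, and Ndufs1 was at 0.0119 by library size alone. The calls of Foxred1, Scnn1g, Acta2, Myh11, Rgs5 and Cd68 were each lost in more than 1 of the fits that left out a library. Groups share replicate numbers. Same-numbered libraries correlated at 0.0231, 0.00916 and 0.00544 in their deviations, within the range of differently numbered ones (-0.0628 to 0.048). Such correlations over all genes cannot exclude a shared litter or handling. With the replicate block 0 genes of the chain and 344 genes in all were called, and the biogenesis regulators had a median of -0.0743. Depth limits the restricted isoform genes, where 3 counts are 0.0633 to 0.0748 CPM.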
